A study of Mus musculus with 12 samples.

Results

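A set of 10 astrocyte marker genes was followed in the frontal cortex of mice lacking Upf3b, an X-linked gene of the nonsense-mediated decay pathway, which degrades mRNAs that end translation too early. The 10 genes were fixed by name, with earlier results of these data known (Etnppl, Aldoc, Sox9, Clu, Glul, Slc1a2, Slc1a3, Aqp4, Gja1 and Gfap). All 10 were among the 14909 genes of the deposited count table, and all 10 were among the 14274 genes with enough reads to be tested. Bulk RNA sequencing libraries came from 7 wild-type (WT 1 to 7) and 5 Upf3b knockout mice (KO 1 to 4 and KO 6), all on the C57BL/6 strain and with no treatment named, with 1 library per mouse. The question was which genes differ in frontal cortex when Upf3b is absent. For the age, sex and substrain of the mice, and the design of the null allele, nothing is given in the sources used here.

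Astrocytes are the glial cells that take up glutamate at synapses and convert it to glutamine, which neurons reuse. They also buffer water and ions through endfeet on blood vessels, are coupled to one another by gap junctions, and supply metabolites to neurons. GFAP, an intermediate filament, builds up in astrocytes that react to injury. In the cortex these markers are not equally restricted to astrocytes, and Glul and Clu are also made by other brain cells. In bulk tissue, fewer astrocytes and less RNA per astrocyte cannot be told apart.

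The tissue carried cortical and astrocyte markers in every library. Slc17a7, the vesicular glutamate transporter of cortical excitatory neurons, lay between 285 and 415 CPM (counts scaled to a common library size, corrected for library composition). Depth was 4684039 to 5425774 counts for WT mice and 4990643 to 6617759 for KO mice. KO 1 was the shallowest KO library and the only one inside the WT range of totals. Upf3b held 157 to 219 counts in the 7 WT libraries and 11 to 24 in the 5 KO libraries. The mean was 38.3 ± 2.48 CPM over WT (SD, n = 7) and 2.76 ± 0.877 CPM over KO (SD, n = 5). Permuting the labels gave an exact two-sided p = 0.00253, the smallest that the 792 arrangements allow, and no library went against its label.

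Of the 10 astrocyte markers 7 were lower in KO and none was higher. The count is 7 of 10 lower against 14.4% of all tested genes, and 0 of 10 higher against 15.3%. Calls are at an adjusted p under 0.05 in edgeR's quasi-likelihood test with Benjamini-Hochberg adjustment over all tested genes. The genes were chosen with earlier results of these data known, so no test was made over the 10. Etnppl fell most, and Sox9, Aldoc, Clu, Glul, Slc1a2 and Slc1a3 fell by smaller amounts. Aqp4, Gja1 and Gfap did not pass. The median log2 fold change of KO over WT was -0.29 over the 10 genes and 0.03 over all tested genes. In 3 of the 10 genes (Etnppl, Sox9 and Clu) the 5 KO libraries all lay below the 7 WT libraries, as they did in 4.8% of tested genes. In no marker did all KO libraries lie above the WT libraries, as they did in 5.84% of tested genes.

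**Figure D1:**
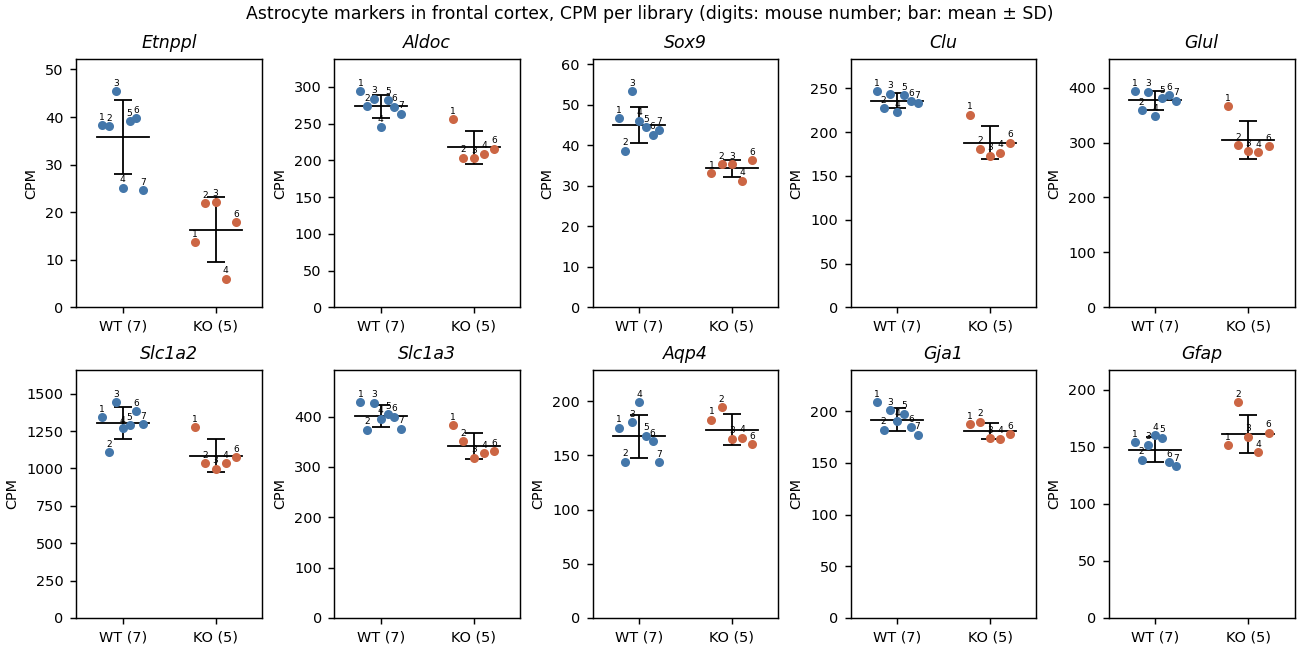
Level of each astrocyte marker in CPM (y axis, from 0) in the 7 WT and 5 KO libraries. Points are libraries with the mouse number beside them, and bars give the mean ± SD. Etnppl and Sox9 separate the groups without overlap, while in Aldoc, Glul, Slc1a2 and Slc1a3 the library of KO 1 lies with the WT libraries.

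The markers differed in how densely they were counted. Read counts of several abundant markers varied less than the library total, which was 1.41 times higher in the deepest library than in the shallowest. Glul held 1759 to 1919 counts over all 12 libraries, a ratio of 1.09. Clu held 1074 to 1205 counts (ratio 1.12) and Slc1a2 5865 to 6792 (ratio 1.16). The ratio was 1.18 for Aldoc, 1.28 for Slc1a3 and 1.47 for Gja1, the last above that of the totals. A gene whose count stays level while the total rises appears lower in the deeper libraries, and 4 of the 5 KO libraries were deeper than every WT library. Over all genes the median log2 fold change was 0.25 in the lowest of 10 equal bins of counts per exonic base and -0.18 in the highest. Aldoc, Clu, Glul, Slc1a2, Slc1a3 and Gja1 all belonged to that densest bin, with 0.327 to 0.657 counts per base. Etnppl and Sox9 were sparse, at 0.0319 and 0.0521 counts per base, with Aqp4 at 0.156 and Gfap at 0.204.

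**Figure D2:**
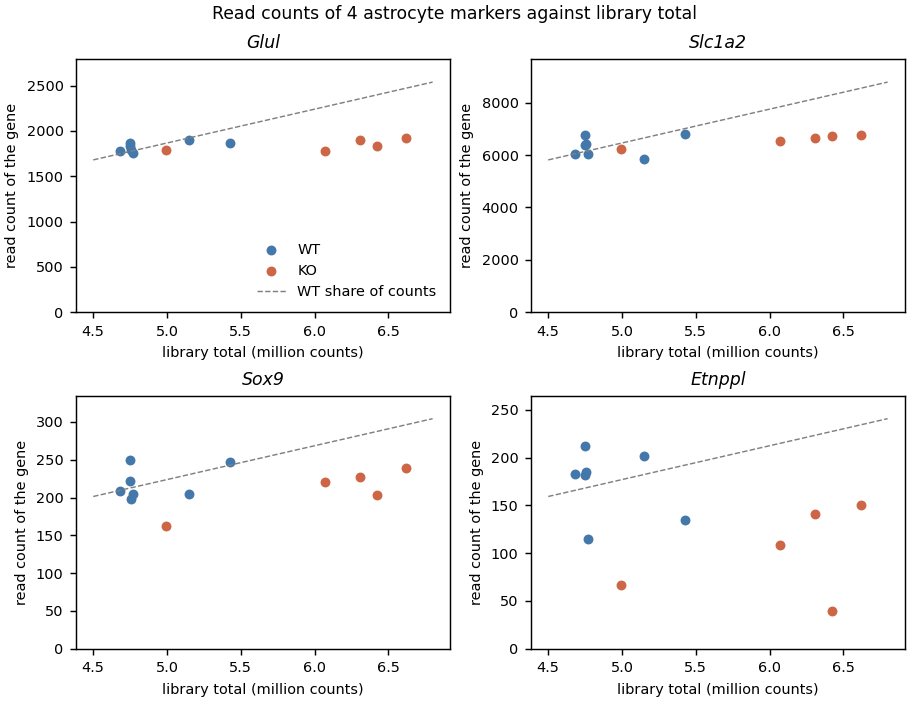
Read count of Glul, Slc1a2, Sox9 and Etnppl (y axis, from 0) against the library total (x axis, in units marked on the axis), with WT in blue and KO in orange. The dashed line is the count expected if a gene kept its share of the WT totals. Glul stays between 1759 and 1919 counts at every depth, while the KO points of Sox9 and Etnppl lie under the line. KO 1 is the only KO library inside the WT range of totals.

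With offsets that remove the trend with count density in each library, 3 of the 10 markers were lower (Etnppl, Sox9 and Aldoc) and none was higher. In that fit 8.12% of all tested genes were lower and 8.43% higher. The median over the 10 genes became -0.03, beside 0.00 over all tested genes. On that scale the groups did not overlap in 2 of the 10 (Etnppl and Sox9, KO lower), against 4.2% of tested genes with KO lower and 4.36% with KO higher. Leaving out any 1 library gave 7 lower markers without offsets and 3 with them. With the log2 total as covariate none of the 10 passed in edgeR, where 0.0771% of tested genes were lower and 0.588% higher. At an unadjusted p under 0.05 in that fit 3 markers were lower (Etnppl, Sox9 and Clu), against 5.67% of all tested genes. In Etnppl, Sox9 and Aqp4 that fit gave a similar fold change and a wider error, as in Etnppl (log2 fold change -1.06 ± 0.46 SE, against -1.12 ± 0.24). In Gfap the fold change shrank and the error widened (0.05 ± 0.11, against 0.13 ± 0.07). In the dense markers the fold change shrank, as in Glul (-0.04 ± 0.04, against -0.31 ± 0.06). Their errors did not behave alike, and widened in Slc1a3 (0.05 to 0.06) and Gja1 (0.05 to 0.07).

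**Figure D3:**
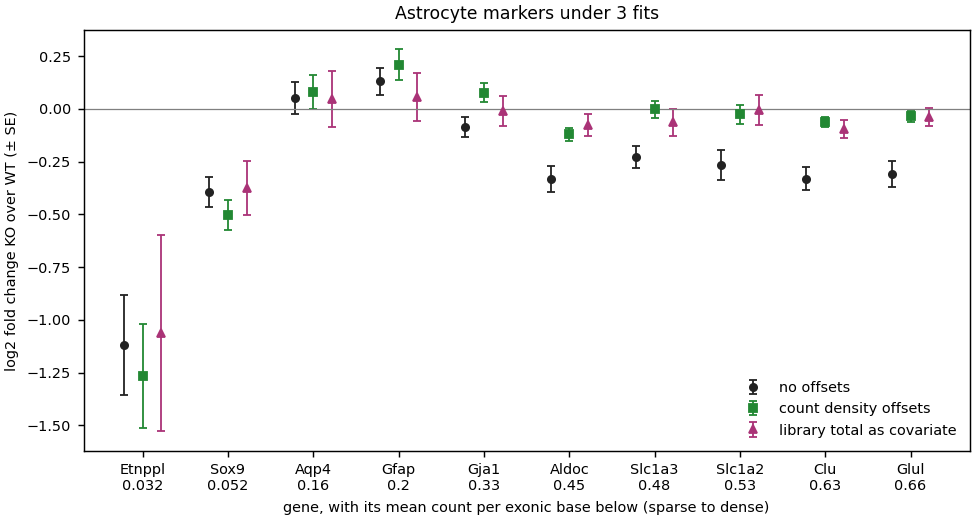
Log2 fold change of KO over WT (y axis, ± SE) for the 10 astrocyte markers, ordered from few to many counts per exonic base (printed under each name). Circles are the fit without offsets, squares the fit with count density offsets, and triangles the fit with the log2 total as covariate. Etnppl and Sox9 stay below 0 in all 3 fits, and the 4 densest genes move to between -0.10 and 0 with offsets or covariate.

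Etnppl encodes a phospholyase that breaks down phosphoethanolamine and in the brain is made mainly by astrocytes. It lies at chr3:130617448-130637521 on the plus strand (mm10). WT libraries lay at 24.6 CPM at the lowest, 38.3 at the median and 45.4 at the highest. The KO values were 13.7 (KO 1), 21.9 (KO 2), 22.2 (KO 3), 6.00 (KO 4) and 17.9 CPM (KO 6). All 5 KO mice lay below the lowest WT mouse, and the gap between KO 3 and WT 7 was small. The mean went from 35.8 ± 7.84 to 16.4 ± 6.74 CPM, or 45.7% of WT, with a log2 fold change of -1.12 ± 0.24 (SE; edgeR adjusted p = 0.00329). With density offsets it was -1.27 ± 0.24 (edgeR adjusted p = 0.00392). Etnppl was also the most variable of the 10 genes within a genotype. Its coefficient of variation was 21.9% in WT and 41.2% in KO, against at most 11.8% in WT and 11.5% in KO for the other markers. WT 4 and WT 7, at 25.2 and 24.6 CPM, stood below the other 5 WT mice, which lay between 38.1 and 45.4.

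Sox9, a transcription factor that starts and maintains the astrocyte programme, lies at chr11:112782224-112787760 on the plus strand. WT libraries ran from 38.7 CPM over a median of 44.5 to 53.3. The KO libraries held 33.1 (KO 1), 35.3 (KO 2), 35.3 (KO 3), 31.2 (KO 4) and 36.4 CPM (KO 6). The groups did not overlap, and the KO mice were close to one another. The mean went from 45.1 ± 4.47 to 34.3 ± 2.08 CPM (76.0% of WT), with a log2 fold change of -0.39 ± 0.07 (SE; edgeR adjusted p = 0.00142). With density offsets the change was -0.50 ± 0.07 (edgeR adjusted p = 5.29e-04). KO 1, whose depth matched the WT libraries, lay below every WT mouse for both Etnppl and Sox9.

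Aldoc encodes the brain form of the glycolytic enzyme aldolase and lies at chr11:78322968-78327781 on the plus strand. WT libraries ran from 245 CPM over a median of 274 to 294. In KO the values were 256 (KO 1), 204 (KO 2), 203 (KO 3), 209 (KO 4) and 216 CPM (KO 6). The 4 deeper KO libraries lay below the WT range and KO 1 lay inside it. The log2 fold change was -0.33 ± 0.06 (SE; edgeR adjusted p = 0.00141) and shrank to -0.12 ± 0.03 with density offsets (edgeR adjusted p = 0.0148). On the offset scale KO 1 remained the 1 KO library inside the WT range, at 246 CPM against 245 to 269 in WT.

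The bases before the annotated starts of Etnppl and Aldoc, lower in both fits, are shown with those of Gfap, which passed in neither. RefSeq start sites on GRCm38.p6 gave a window for 7 of the 10 genes, and Sox9, Clu and Aqp4 had none. Each line holds the 250 bases before the first listed start, 5′ to 3′ on the gene's strand, with capitals where a searched motif was found. The gene ranges printed in the text come from GENCODE, and its starts can differ from those of RefSeq. The Gfap window lies inside the printed range of Gfap, and the Aldoc window ends inside that of Aldoc.
Etnppl, chr3:130617198-130617447, plus strand: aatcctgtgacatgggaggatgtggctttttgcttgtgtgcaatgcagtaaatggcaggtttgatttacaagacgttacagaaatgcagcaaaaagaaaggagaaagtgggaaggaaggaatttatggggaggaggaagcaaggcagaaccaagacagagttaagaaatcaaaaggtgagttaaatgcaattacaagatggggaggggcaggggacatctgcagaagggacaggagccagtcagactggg
Aldoc, chr11:78322823-78323072, plus strand: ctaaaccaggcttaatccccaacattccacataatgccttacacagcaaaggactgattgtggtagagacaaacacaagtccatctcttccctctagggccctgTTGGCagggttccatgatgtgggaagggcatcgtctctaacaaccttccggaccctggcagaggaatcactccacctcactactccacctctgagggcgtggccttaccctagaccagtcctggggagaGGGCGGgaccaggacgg
Gfap, chr11:102897201-102897450, minus strand: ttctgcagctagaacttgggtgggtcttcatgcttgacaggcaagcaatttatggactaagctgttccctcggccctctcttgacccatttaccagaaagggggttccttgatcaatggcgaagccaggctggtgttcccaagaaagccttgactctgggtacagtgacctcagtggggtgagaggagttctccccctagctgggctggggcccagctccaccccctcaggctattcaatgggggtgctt
Matches were searched on both strands among all 32851 windows. The SOX factor motif AACAAT was in 9.42% of them. The STAT factor motif TTCNNNGAA was in 7.02% of windows. TTGGC, part of the site of NFI factors, was in 41.5% of windows. The TATA box TATAAA was in 12.4% of windows. The GC box GGGCGG was in 32.7% of windows. None of these letter strings contains another. The Aldoc window held TTGGC at -146 and GGGCGG at -17 from the start. The Etnppl and Gfap windows held none of the 5, but a further Etnppl start 127 bases downstream had TTGGC at -57 and GGGCGG at -128. A further Aldoc start had the STAT factor motif at -124 and -83. These are matches of letters only.

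Clu, which encodes the secreted chaperone clusterin (apolipoprotein J), lies at chr14:65968483-65981547 on the plus strand. WT libraries ran from 223 CPM over a median of 236 to 246. The KO libraries held 219.7 (KO 1), 181 (KO 2), 173 (KO 3), 176 (KO 4) and 188 CPM (KO 6). KO 1 lay just under the lowest WT library and the other KO libraries lay well under it. The log2 fold change was -0.33 ± 0.05 (SE; edgeR adjusted p = 8.15e-04). With density offsets it was -0.062 and did not pass (edgeR adjusted p = 0.0985), with 218 ± 3.62 CPM in WT and 209 ± 4.74 CPM in KO.

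The genes of glutamate uptake and conversion were lower without offsets and near the WT level with them. Slc1a2 and Slc1a3 encode the astrocytic glutamate transporters GLT-1 and GLAST, and Glul encodes glutamine synthetase. They lie at chr2:102658659-102790784 (plus strand), chr15:8634124-8710764 (minus strand) and chr1:153899944-153909723 (plus strand). Exons of Glul and of Slc1a2 overlap genes on the other strand (Teddm2 and Gm13872), and no source used here states whether strand was used in counting.

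Glul lay between 348 and 393 CPM in WT, with a median of 381. In KO it lay at 366 (KO 1), 295 (KO 2), 284 (KO 3), 282 (KO 4) and 294 CPM (KO 6). The log2 fold change was -0.31 ± 0.06 (SE; edgeR adjusted p = 0.00224). KO 1 was the only KO library inside the WT range.

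Slc1a2, the most heavily counted gene of the 10, lay between 1107 and 1444 CPM in WT, with a median of 1294. The KO values were 1277 (KO 1), 1035 (KO 2), 999 (KO 3), 1036 (KO 4) and 1076 CPM (KO 6). The log2 fold change was -0.27 ± 0.07 (SE; edgeR adjusted p = 0.0127). Slc1a3 lay between 373 and 429 CPM in WT, with a median of 399.9, and at 383 (KO 1), 351 (KO 2), 318 (KO 3), 327 (KO 4) and 331 CPM (KO 6) in KO. Its log2 fold change was -0.23 ± 0.05 (SE; edgeR adjusted p = 0.00515). In both transporter genes 4 KO libraries lay below the WT range and KO 1 lay inside it.

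With density offsets the 3 genes of the glutamate cycle had log2 fold changes of -0.035 (Glul), -0.026 (Slc1a2) and -0.0026 (Slc1a3), and none passed (edgeR adjusted p = 0.376, 0.731 and 0.972). Their levels in KO were then 97.6%, 98.2% and 99.8% of WT. Other transporters of the SLC1 family were followed as well. Slc1a1 stood at 151 ± 8.39 CPM in WT and 152 ± 6.03 in KO (edgeR adjusted p = 0.878), and Slc1a4, a neutral amino acid transporter, rose slightly, from 114 ± 4.88 to 123 ± 3.24 CPM (edgeR adjusted p = 0.0446, and 0.0158 with density offsets). Its groups overlapped, and without offsets the call ended when any of 9 of the 12 libraries was left out (edgeR adjusted p up to 0.127, without WT 4) and with the log2 total as covariate (0.455).

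The markers of endfeet, gap junctions and the cytoskeleton did not pass in either fit. Aqp4, the water channel of astrocyte endfeet (chr18:15389496-15410982, minus strand), lay between 144 and 199 CPM in WT and at 183, 195, 165, 166 and 160.2 CPM in KO 1, 2, 3, 4 and 6. Its log2 fold change was 0.05 ± 0.08 (SE; edgeR adjusted p = 0.656). Gja1, which encodes the gap junction protein connexin 43 (chr10:56377330-56402513, plus strand), lay between 178 and 209 CPM in WT and at 188, 190.1, 174, 174 and 178 CPM in KO. Its log2 fold change was -0.09 ± 0.05 (SE; edgeR adjusted p = 0.164), turning to 0.075 with density offsets (edgeR adjusted p = 0.273). All 5 KO libraries of Aqp4 and 3 of the 5 of Gja1 lay inside the WT range.

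Gfap, the filament gene (chr11:102887336-102900912, minus strand), lay between 133 and 160.1 CPM in WT, with a median of 152. The KO values were 151 (KO 1), 189 (KO 2), 159 (KO 3), 145 (KO 4) and 162 CPM (KO 6). KO 2 and KO 6 lay above the WT range. The log2 fold change was 0.13 ± 0.07 (SE; edgeR adjusted p = 0.149) and 0.21 ± 0.07 with density offsets (edgeR adjusted p = 0.0658). The fit with offsets gave an adjusted p of 0.0457 without KO 1 and 0.0364 without WT 4, and 0.0593 to 0.158 without any other library.

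Ratios of read counts within a library do not depend on its scaling, although a trend with count density can still enter them. The 4 markers with under 0.25 counts per base (Etnppl, Sox9, Aqp4 and Gfap) gave 6 ratios, chosen after the data had been seen. Exact two-sided permutation tests were made over libraries, with Benjamini-Hochberg adjustment over the 6. Of the 10 bins of counts per base, Etnppl and Sox9 lay in bins 3 and 4, and Aqp4 and Gfap in bins 8 and 9. The median log2 fold change of all genes in these bins was 0.15, 0.12, -0.03 and -0.09. The part of that trend in the ratios was not tested. Sox9 held 0.306 ± 0.0268 counts per Gfap count in WT (0.279 to 0.351, n = 7) and 0.214 ± 0.0154 in KO (0.187 to 0.224, n = 5; exact adjusted p = 0.00505). The KO libraries all lay below the WT libraries, a difference of -0.52 in mean log2 ratio. Sox9 per Aqp4 count also separated the groups, at 0.270 ± 0.0241 in WT and 0.198 ± 0.0210 in KO (exact adjusted p = 0.00505).

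Etnppl fell even against Sox9, with 0.797 ± 0.175 Etnppl counts per Sox9 count in WT and 0.470 ± 0.179 in KO (exact adjusted p = 0.0212 by permutation). The groups overlapped in that ratio, WT 4 and WT 7 being low, and the adjusted p was 0.0509 without KO 1 and 0.0509 without KO 4. Aqp4 per Gfap count was 1.14 ± 0.0764 in WT and 1.08 ± 0.0915 in KO, which did not pass (exact adjusted p = 0.270 by permutation). The ratios of Etnppl to Aqp4 and to Gfap differed by -1.29 and -1.36 in mean log2 ratio (exact adjusted p = 0.00758 and 0.00505 by permutation).

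**Figure D4:**
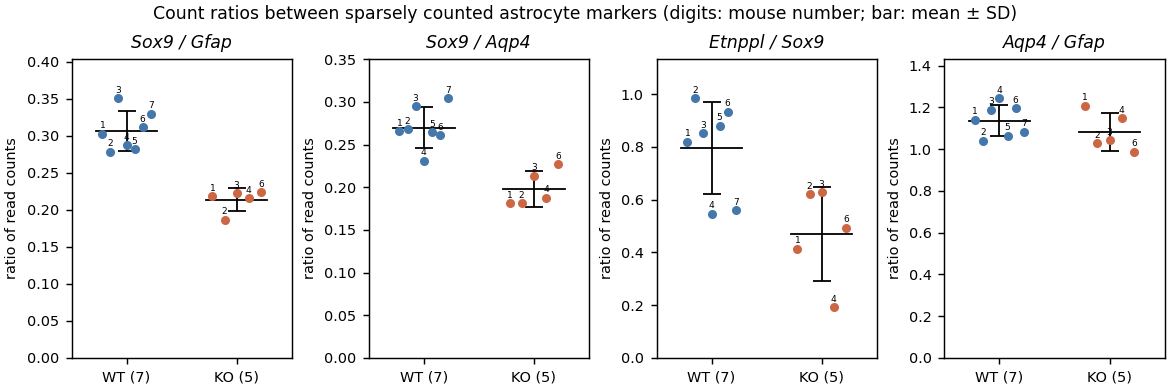
Ratio of read counts between pairs of astrocyte markers with under 0.25 counts per base (y axis, from 0) in the 7 WT and 5 KO libraries, with mouse numbers and mean ± SD. Sox9 per Gfap and Sox9 per Aqp4 separate the groups without overlap, Etnppl per Sox9 overlaps at WT 4 and WT 7, and Aqp4 per Gfap does not differ beyond the spread.

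Per kilobase of exon the order of the 10 markers was the same in both genotypes. Levels in RPKM (CPM divided by the exonic length in kilobases) in WT were highest for Glul at 135 ± 6.09 and Clu at 130.2 ± 4.86, whose ranges overlapped. Slc1a2 followed at 108 ± 8.78, Slc1a3 at 96.3 ± 5.29 and Aldoc at 91.9 ± 5.32, each overlapping the next. Gja1 stood apart at 62.4 ± 3.69 RPKM, followed by Gfap at 36.2 ± 2.72 and Aqp4 at 28.4 ± 3.35, whose ranges overlapped. Sox9 at 10.9 ± 1.08 and Etnppl at 7.96 ± 1.74 were lowest and also overlapped. The counts of Glul, Clu, Slc1a2, Slc1a3 and Aldoc varied less over the libraries than the totals did. The cause was not tested, and their levels carry that limit.

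A wider set of astrocyte genes was described through 6 lists, with the 10 markers removed and some genes in more than 1 list. Of 68 further genes of cortical astrocytes 23 were lower and 2 higher (median log2 fold change -0.08), against 9 lower and 2 higher after density offsets (median -0.03). The lower share was 33.8%, against 14.4% of all tested genes, and with offsets 13.2% against 8.12%. The higher share was 2.94% in both fits, against 15.3% and 8.43%. Fam107a, an actin-associated stress-response gene, stood at 334 ± 27.7 CPM in WT and 255 ± 17.9 in KO, without overlap of the groups. Its log2 fold change was -0.39 ± 0.06, and -0.15 with offsets (edgeR adjusted p = 6.81e-04 and 0.0167). Apoe, the lipid carrier, fell by 0.38 on the log2 scale, and by 0.11 with offsets (edgeR adjusted p = 0.00148 and 0.0169). Pla2g7, a secreted phospholipase, fell by 0.32, and by 0.20 with offsets (edgeR adjusted p = 0.00166 and 0.0143). Mt3, a metal-binding protein, fell by 0.33 but did not pass with offsets (edgeR adjusted p = 0.00146 and 0.0961). Lrp4, a receptor of the LDL receptor family, rose by 0.34, and by 0.25 with offsets (edgeR adjusted p = 0.0032 and 0.0274). Lrig1, which restrains growth factor receptors, rose by 0.39 but did not pass with offsets (edgeR adjusted p = 0.0282 and 0.1001), and the first call ended without any of 5 libraries (up to 0.081, without KO 2).

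Among 28 regulators of the astrocyte lineage 4 were lower and 2 higher, against 3 lower and none higher after density offsets. The lower share, 14.3%, was that of all tested genes (14.4%), and with offsets it was 10.7% against 8.12%. The higher share without offsets was 7.14%, against 15.3% of all tested genes. Without offsets the number higher was 1 to 4 when 1 library was left out, with 4 without WT 4. Sox2, the SOX factor of neural progenitors that astrocytes retain, fell from 65.2 ± 4.29 to 53.1 ± 3.17 CPM. The 7 WT libraries ran from 60.7 to 72.1 CPM and the 5 KO libraries from 48.8 to 56.9, with no overlap (log2 fold change -0.30 ± 0.06 SE; edgeR adjusted p = 0.00171, and 0.00794 with offsets). Id4 and Id2, inhibitors of basic helix-loop-helix factors, fell by 0.36 and 0.31 on the log2 scale, and by 0.43 and 0.14 with offsets. Id3 (-0.17), Id1 (0.30) and Notch2 (0.34) passed without offsets only, and their calls ended when any of 7, 4 and 2 libraries was left out (highest edgeR adjusted p = 0.0772 without KO 4, 0.0959 without KO 6 and 0.0706 without KO 2). The SOX genes Sox8 and Sox10, which mark mainly the oligodendrocyte lineage, stood at 82.2 ± 5.26 and 64.5 ± 4.21 CPM in WT and 86.4 ± 2.13 and 67.4 ± 4.67 in KO, and neither passed (edgeR adjusted p = 0.258 and 0.431).

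Of 33 genes reported to rise in reactive astrocytes 11 were higher (33.3%, against 15.3% of all tested genes) and 1 lower, with a median log2 fold change of 0.20. After density offsets 3 were higher (9.09%, near the 8.43% of all tested genes) and 1 lower, with a median of 0.09. Serpina3n, a secreted protease inhibitor, stood at 26.0 ± 4.48 CPM in WT and 65.1 ± 35.5 in KO. Its log2 fold change was 1.31 ± 0.30 (edgeR adjusted p = 0.0048, and 0.0120 with offsets). Its KO values were 78.3 (KO 1), 31.1 (KO 2), 25.1 (KO 3), 84.0 (KO 4) and 107 CPM (KO 6), against 21.0 to 33.8 in WT. KO 1, KO 4 and KO 6 were high and KO 2 and KO 3 lay in the WT range, whereas in Gfap KO 2 was highest. Serpina3n belongs to a family of close copies, among which reads may be split. Tnc, the matrix protein tenascin C, went from 7.05 ± 1.57 to 12.6 ± 2.88 CPM (edgeR adjusted p = 0.0027, and 0.0163 with offsets). Vim, the filament partner of Gfap, rose by 0.14 ± 0.04 on the log2 scale, with 48.6 ± 1.68 CPM in WT and 53.5 ± 1.23 in KO (edgeR adjusted p = 0.0240, and 0.0445 with offsets). The call without offsets ended without KO 2, KO 6 or WT 4 (edgeR adjusted p up to 0.0698) and with the log2 total as covariate (0.4501). Cp and Osmr were higher without offsets only (0.37 and 0.54), as S100a10 was lower (-0.30, with an edgeR adjusted p of 0.0975 without KO 6).

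The lists of astrocyte function lost most of their lower genes with offsets. Of 38 genes of carbon and lipid metabolism 15 were lower and 1 higher, against 2 and 3 with density offsets. The lower share was 39.5%, against 14.4% of all tested genes, and with offsets 5.26% against 8.12%. The higher share was 2.63% against 15.3%, and with offsets 7.89% against 8.43%. Aldoa, the ubiquitous aldolase, fell by 0.33 on the log2 scale like Aldoc, but with offsets stood at -0.06 and did not pass (edgeR adjusted p = 0.00225 and 0.116). Pgk1 and Ldhb, enzymes of glycolysis and lactate metabolism, behaved in the same way (-0.24 and -0.30, then -0.01 and -0.04). Slc2a1, the glucose transporter of brain endothelium and astrocytes, rose from 103 ± 3.28 to 125 ± 8.21 CPM without overlap. It passed in all 3 fits (edgeR adjusted p = 5.97e-04, 6.2e-05 with offsets and 0.00548 with the log2 total as covariate).

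Of 16 further genes of the glutamate and glutamine cycle 4 were lower (Got1, Got2, Glud1 and Slc17a7) and 3 higher (Slc38a5, Aldh18a1 and Slc1a4). The shares were 25% lower and 18.8% higher, against 14.4% and 15.3% of all tested genes. With offsets none was lower and 1 higher (6.25%, against 8.43% of all tested genes). In the fit without offsets only 1 was higher without KO 2, KO 3, KO 4, KO 6, WT 3 or WT 7. Slc17a7 lost its call without KO 3 or KO 4 (edgeR adjusted p up to 0.0536). Of 19 further genes of endfeet, water and gap junctions 3 were lower, among them Atp1b2 and Mlc1, which with offsets stood at 0.01 and 0.02, and then none of the list was lower. Without KO 3 or KO 4 only 1 of the 3 passed. The lower share of this list without offsets, 15.8%, was near the 14.4% of all tested genes. Its higher share was 0%, and with offsets 5.26%, against 15.3% and 8.43%. Gjb6, the connexin 30 gene and partner of Gja1, lay at 76.6 ± 9.22 CPM in WT and 72.2 ± 4.45 in KO (edgeR adjusted p = 0.424).

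**Figure D5:**
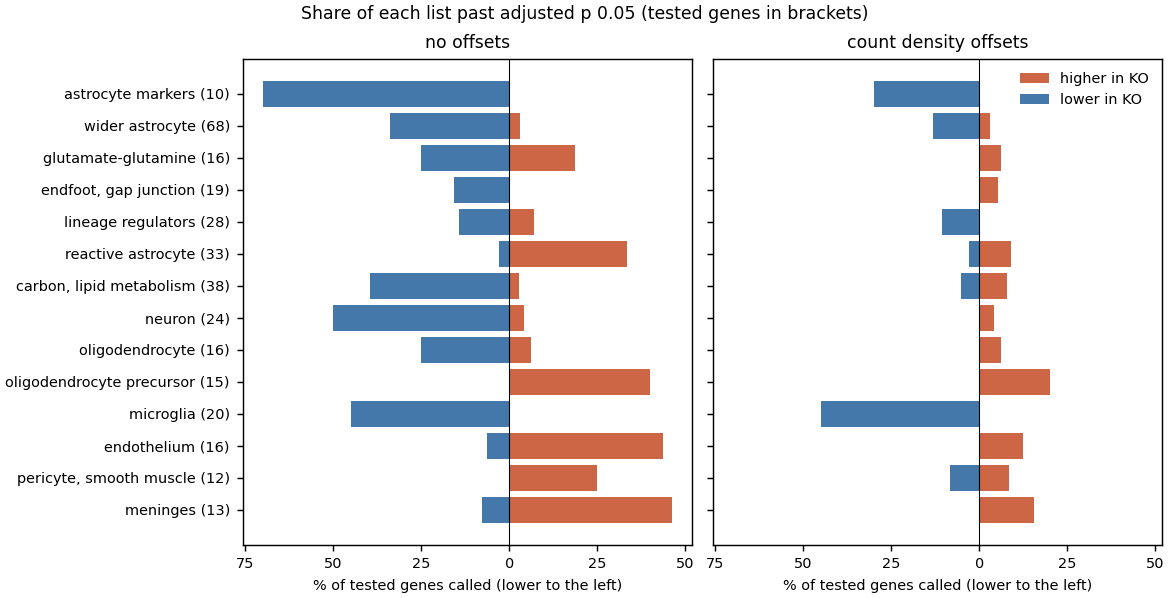
Percent of the tested genes of each list (tested number in brackets) that were higher (orange, to the right) or lower (blue, to the left) in KO at an adjusted p under 0.05, without offsets (left panel) and with count density offsets (right panel). The 10 astrocyte markers go from 7 to 3 lower genes, neurons from 12 to 0 and microglia stay at 9.

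Markers of other cell types were set beside the astrocyte genes in the same fits. Among all tested genes 14.4% were lower and 15.3% higher, and with density offsets 8.12% and 8.43%. Of 24 neuronal genes 12 were lower (50%) and 1 higher (4.17%), against none and 1 after density offsets. Of 16 oligodendrocyte genes 4 were lower (25%) and 1 higher (6.25%), against none and 1. Of 20 microglial genes 9 were lower (45%) and none higher in both fits, such as Fcrls. Their summed level did not overlap between WT (985 to 1240 CPM) and KO (904 to 944 CPM). The summed level of the reactive astrocyte genes did not overlap either, with KO higher (599 to 660 CPM in WT, 712 to 841 CPM in KO). That sum includes Serpina3n, at a mean of 26.0 CPM in WT and 65.1 in KO. With offsets 9.09% of the reactive genes were higher, near the 8.43% of all tested genes. All sums are of CPM without offsets, and none was made with offsets. The sums of the other lists overlapped. Of 15 genes of oligodendrocyte precursors 6 were higher (40%) and none lower, such as Cspg4 and Gpr17, and 3 were higher with offsets (20%). Of 16 endothelial genes 7 were higher (43.8%), such as Vwf, and 1 lower (6.25%), against 2 (12.5%) and 0 with offsets. Leaving out 1 library gave 4 to 9 higher endothelial genes, with 4 without KO 3, KO 4, KO 6, WT 1 or WT 3, and 9 to 14 lower microglial genes, with 14 without WT 6. Pericyte and smooth muscle genes had 3 of 12 higher (25%, Cspg4 and Myh11 first), and 1 higher and 1 lower with offsets (8.33% each). Meningeal genes had 6 of 13 higher (46.2%, Col1a2 first) and 1 lower (7.69%, Ptgds), against 2 (15.4%) and none with offsets. Without offsets 3 meningeal genes were higher when KO 6 was left out. No gene passed among 9 of ependyma and choroid plexus, 10 of striatum, 8 of olfactory bulb and subventricular zone, and 1 of blood. The 10 striatal genes summed to 940 to 2202 CPM in WT libraries and 1080 to 1798 CPM in KO libraries. The part of these other cell types in the astrocyte values was not tested.

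The genes whose profile over the 12 libraries lay closest to that of Etnppl were all outside the astrocyte lists. Likeness was the root mean square difference of log2 CPM, centred on each gene's mean, among 14254 genes. It took in the difference between KO and WT, so a fall in KO among the nearest genes follows largely from the selection. The 5 nearest were 1700034G24Rik (difference 0.483), Spp1 (0.484), Myo7a (0.490), Ly86 (0.494) and Cort (0.510), beside a root mean square of 0.772 for Etnppl itself. Spp1 encodes osteopontin and Cort the interneuron peptide cortistatin, and 4 of the 5 passed the test, Myo7a being the exception (edgeR adjusted p = 0.101). For the mean profile of the 10 markers the nearest genes were Rpl23 (0.0578), Ndufb7 (0.0657), Mt2 (0.0686), Plpp3 (0.0686) and Fam213a (0.0689). Plpp3, a lipid phosphatase of astrocytes, belongs to the wider list, fell by 0.23 on the log2 scale and stood at -0.05 with offsets.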

How the data were processed

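Frontal cortex RNA of 7 WT and 5 KO mice was isolated with Trizol and a column kit, per the labels' protocols. The authors deposited raw counts, whole numbers for each RefSeq gene and library, with no scaling. The submitters' processing notes name STAR as a tool and mm10 as the genome. No source used here gives the counting program, its use of strand, the treatment of duplicate reads or a filter, and reads of overlapping genes or close paralogs may be shared.

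The test was edgeR 4.0.16 (R 4.3.3) with filterByExpr, TMM factors, group as the only term and Benjamini-Hochberg adjustment over 14274 genes at 0.05. limma 3.58.1 and DESeq2 1.42.0 served as alternatives. Every fold change is log2 of KO over WT. Exonic lengths came from GENCODE M21 (14118 tested genes, with the median length for the rest). Density offsets are lowess trends (span 0.3) of each library's log2 CPM deviation on the log2 mean count per exonic base. The permutation test of Upf3b used log2 CPM with a pseudocount of 0.5. Some of the fits, the one with the log2 total as covariate not among them, were also run on simulated counts, with the outcome not reported here. A spreadsheet had turned 23 symbols into dates, and these were renamed by accession.

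The members and lists were chosen with earlier results of these data known. Named genes are Upf3b, the 10 markers, up to 4 passing genes in each direction per astrocyte list and 2 genes per other list by smallest p, the 5 nearest profiles, and paralogs of the markers, with Slc17a7 as a check of the tissue. Some genes under this rule are not reported here. Each library is 1 mouse. Alternatives were other scalings, tests, filters and thresholds, a block by mouse number, each library left out, and other treatments of depth.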

Additional observations from a re-analysis of the deposited data

Results flagged for a closer look

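Among the 11 genes (the 10 markers and Upf3b) 3 had a library that stood apart within its genotype, and in each it was KO 1 at the high end. Its level was 256 CPM for Aldoc (203 to 216 in the other KO libraries), 366 CPM for Glul (282 to 295) and 1277 CPM for Slc1a2 (999 to 1076). The test compares the gap to the nearest library with the range of the group, and chance alone gives such a result in about 1 of 20 groups, with 22 groups examined. KO 1 held 4990643 counts in total, against 6068895 to 6617759 in the other KO libraries. With density offsets KO 1 lay at 246 CPM for Aldoc, 346 for Glul and 1217 for Slc1a2, and the other KO libraries at 230.4 to 236, 327 to 354 and 1157 to 1220.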

How the results depend on the processing

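Of 260 values of the 10 markers under other settings 239 kept their direction and side of the threshold. The number of lower markers was 6 at an adjusted p under 0.01, 8 with limma-voom sample weights, where Gja1 passed (-0.12), 3 with density offsets, and 0 with the total as covariate. It was also 0 among the 3 libraries with totals in the range of both groups (KO 1, WT 2 and WT 4), where the single KO library is assumed to vary like WT. In that small edgeR fit no gene passed, Upf3b (-4.03) included, and 278 of 14518 genes, Etnppl alone among the markers, had an unadjusted p under 0.05. It was 7 in all the others, leaving out each library included. Densely counted markers depend on how depth is treated, and the cause was not tested.

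The median over the markers was -0.03 with density offsets, -0.17 after cyclic loess, -0.05 with the covariate and 0.00, on the other side of 0, in the 3 libraries. Calls lost with offsets were Clu (-0.062), Glul (-0.035), Slc1a2 (-0.026) and Slc1a3 (-0.0026), and Gja1 turned to 0.075. With the covariate the values were -1.06 (Etnppl), -0.077 (Aldoc), -0.37 (Sox9), -0.10 (Clu), -0.039 (Glul), -0.0052 (Slc1a2) and -0.064 (Slc1a3). In the 3 libraries they were -1.21 (Etnppl), -0.017 (Aldoc), -0.35 (Sox9), -0.034 (Clu), 0.049 (Glul), 0.11 (Slc1a2), -0.0045 (Slc1a3) and 0.013 (Gja1). Leaving out each library moved Slc1a3 with offsets between -0.038 and 0.012, and the log2 ratio of Etnppl to Sox9 between -0.98 and -0.55, losing the call without KO 1 or KO 4.

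Over all tested genes 2183 were higher (15.3%) and 2050 lower (14.4%). These counts became 1204 and 1159 with offsets (8.43% and 8.12%) and 84 and 11 with the covariate (0.588% and 0.0771%). They were 1006 and 1145 at 0.01, and 1129 and 1186 with a replicate block by mouse number. Among the 193 genes of the astrocyte lists in the count table, without the markers, 19 were higher and 46 lower. These became 9 and 14 with offsets, 1 and 0 with the covariate, and 8 and 28 at 0.01, and the block left 6 higher. Among the 147 genes of the other lists in the count table, 23 were higher and 27 lower. These became 9 and 10 with offsets and 1 and 1 with the covariate, and 10 were higher at 0.01. With the covariate 88.4% of calls were higher, against 51.6% without. The labels do not say whether mice of the same number were paired. Same-numbered deviations had correlations of -0.376 to 0.141, which do not settle it, and no KO library matched its own number best. The block gave 7 lower markers.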
